A study of Mus musculus with 33 samples.

Results

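The 10 genes described here mark mural cells, the cells that wrap the wall of small vessels in the brain: Pdgfrb, Notch3, Ednra, Vtn, Rgs5, Abcc9, Cd248, Acta2, Tagln and Myh11. They were chosen by symbol, and all 10 were found among 24034 gene symbols of the deposited count table. Pericytes sit on capillaries inside the basement membrane, while smooth muscle cells sit on arterioles and venules and carry the contractile apparatus. Endothelial cells recruit pericytes by releasing PDGF-B, which binds the receptor that Pdgfrb encodes, and they signal through Notch ligands to the receptor Notch3 on mural cells. In the brain, pericytes are known for supporting the blood-brain barrier and smooth muscle cells for setting arteriolar tone.

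RNA of the nucleus accumbens, a part of the ventral striatum, was sequenced in bulk from C57BL/6J mice in 33 libraries of 6 groups. Morphine was given at 20 mg/kg per day for 7 days to germ-free mice (GF morphine, 5 libraries), to conventional mice that drank antibiotics (Abx morphine, 5) and to conventional mice that drank water (H2O morphine, 5). The same kinds of mice received saline: GF saline, Abx saline and H2O saline, with 6 libraries each. The Abx drink held bacitracin and vancomycin at 0.5 mg/mL each, neomycin at 2 mg/mL and the antifungal pimaricin at 1.2 µg/mL, started 2 weeks before the experiment, and whole cages were assigned to a drink. Conventional mice were 7 to 9 weeks old and came from a supplier, and the labels say they were those of an earlier publication. The GF mice were of matched age, came from an in-house isolator colony and had sterilised food and water, so germ-free state and breeding facility cannot be told apart. The labels number the libraries without saying that each is a separate mouse, so p-values measure the spread between these libraries.

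The libraries held 4.86 to 15.3 megareads assigned to a gene. The 22 conventional libraries held 9.33 to 15.3 megareads and 10 of the 11 GF libraries 4.86 to 8.10 megareads. GF saline replicate 1 held 15.3 megareads and lay at -13.4 on the first principal component, which carried 42.5% of the variance, against 3.83 to 19.6 for the other GF libraries and -25.2 to 13.3 for conventional ones. Its levels of Pdgfrb (30.5 CPM), Vtn (49.4 CPM) and Cd248 (2.35 CPM) lay within the range of the other GF libraries. The 10 medium spiny neuron markers, which identify striatum, summed to 2388 to 7411 CPM per library. Hypothalamic and pituitary markers summed to 6.72 to 97.2 CPM in GF saline libraries and 5.77 to 48.1 CPM in H2O saline libraries, and 4 of their 6 tested genes were higher in GF saline. In that comparison 18% of all genes were called higher. Cortical-type glutamatergic markers summed to 140 to 178 CPM in GF morphine, 284 to 1100 CPM in Abx morphine and 119 to 1316 CPM in H2O morphine libraries, and to 126 to 524 CPM in GF saline, 216 to 1630 CPM in Abx saline and 179 to 823 CPM in H2O saline libraries. In GF morphine against Abx morphine 6 of the 8 were called lower and 1 higher, with a median log2 difference of -3.94. Of all genes, 13.4% were called lower there and 14.7% higher. The part of neighbouring tissue in the results below was not tested.

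Levels are given as CPM, a gene's reads per megaread of its library after scaling, and group levels as mean ± SD. Differences are log2 fold changes ± standard error from a single edgeR quasi-likelihood fit over 14583 genes, in which all 10 genes passed the filter on low counts. The standard error was worked back as the size of the difference divided by the square root of its F statistic. For Ednra, a gene of few reads, it comes out smaller than the edgeR p-values imply. A gene is called when its Benjamini-Hochberg adjusted p over all genes is under 0.05. In bulk tissue, fewer mural cells and less RNA of a gene per cell cannot be told apart.

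Every one of the 10 genes had reads in all 33 libraries. Compared per kilobase of transcript in H2O saline libraries, Vtn was highest at 47.8 CPM per kilobase. Tagln (8.58), Pdgfrb (8.34), Rgs5 (7.69) and Acta2 (7.17 CPM per kilobase) followed, then Notch3 (4.40), Myh11 (2.36), Cd248 (1.85), Abcc9 (1.73) and Ednra (1.02). Cd248 and Ednra rested on few reads, from 10 to 73 and from 15 to 61 per library. The ratio of the highest to the lowest group mean was 2.38 for Cd248, 1.71 for Vtn, 1.65 for Pdgfrb and for Ednra, and 1.48 or less for the other 6 genes.

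**Figure D1:**
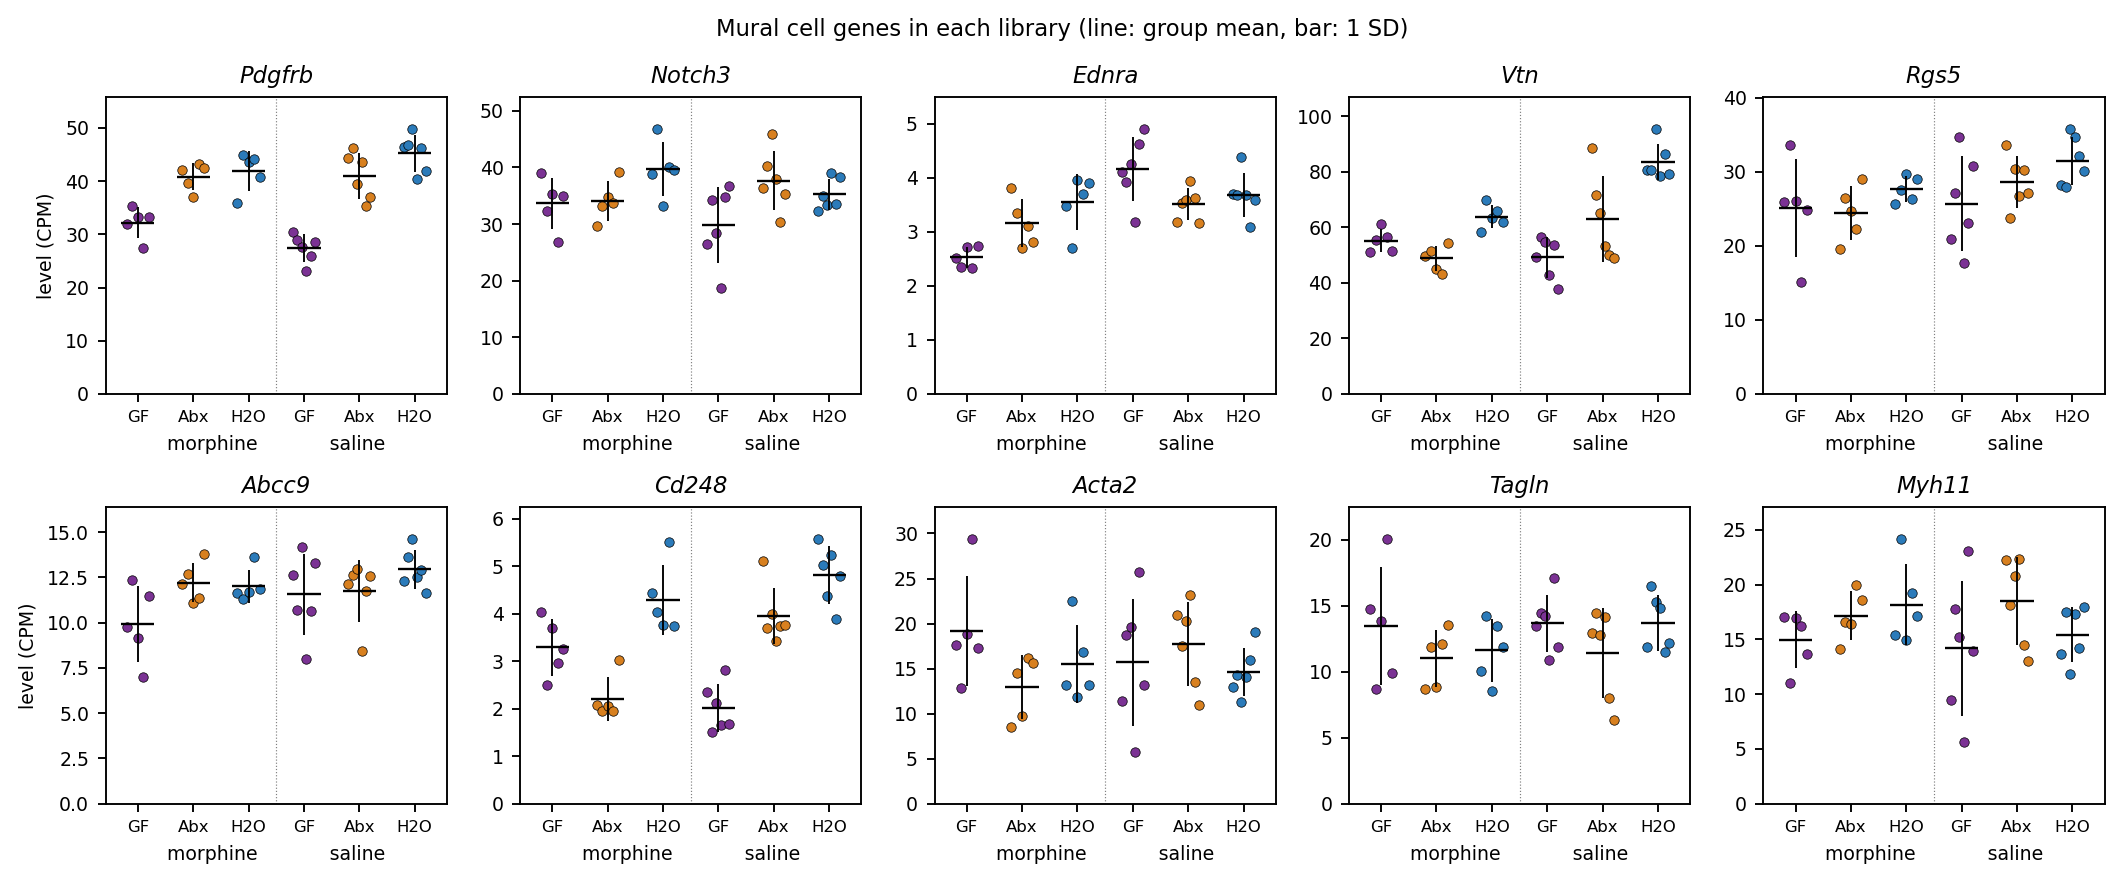
Level of each gene in CPM (vertical axis, from 0) in each of the 33 libraries, by group; points are libraries, horizontal lines group means and vertical bars 1 SD. Pdgfrb in both GF groups lies below all conventional libraries, Vtn is highest in H2O saline, and Acta2, Tagln and Myh11 overlap in every group.

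The receptor genes came first. Pdgfrb encodes the PDGF-B receptor of pericytes. GF morphine libraries had 27.4, 31.9, 33.2, 33.2 and 35.3 CPM of it, Abx morphine libraries 37.0, 39.7, 42.1, 42.4 and 43.1 CPM, and H2O morphine libraries 35.8, 40.7, 43.6, 44.2 and 45.0 CPM. In saline mice, the lowest, median and highest level was 23.1, 28.1 and 30.5 CPM in GF, 35.4, 41.5 and 46.3 CPM in Abx, and 40.4, 46.3 and 49.8 CPM in H2O libraries. All 11 GF libraries lay below all 22 conventional ones, though the highest GF level (35.3 CPM) and the lowest conventional one (35.4 CPM) nearly met. In the order of group means, the ranges of neighbours were apart at 1 step, between Abx morphine and GF morphine, and the 4 conventional groups overlapped each other, as did both GF groups. Pdgfrb fell by 0.72 ± 0.08 on the log2 scale in GF saline against H2O saline mice (edgeR adjusted p = 2.35e-07, lower in 6 of 6 libraries). Against Abx saline it fell by 0.58 ± 0.08 (edgeR adjusted p = 7.87e-06, 6 of 6 libraries). Under morphine the differences were -0.38 ± 0.08 against H2O (adjusted p = 0.00762, edgeR) and -0.34 ± 0.08 against Abx (adjusted p = 0.00282), each with 5 of 5 GF libraries below. The call against H2O morphine was lost in a fit corrected for gene length and GC content (-0.26, adjusted p = 0.0602). Between GF morphine and GF saline the log2 difference was 0.23 ± 0.08, with 4 of 5 morphine libraries above the saline range, and it was not called (edgeR adjusted p = 0.665).

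Notch3 encodes the Notch receptor of smooth muscle cells and pericytes. It averaged 33.7 ± 4.50 CPM in GF morphine, 34.1 ± 3.47 in Abx morphine, 39.7 ± 4.82 in H2O morphine, 29.9 ± 6.72 CPM in GF saline, 37.7 ± 5.15 CPM in Abx saline and 35.3 ± 2.73 CPM in H2O saline libraries. Each of these groups overlapped the next in the order of means. With all libraries, edgeR called Notch3 in 1 comparison, GF saline against Abx saline, where it fell by 0.34 ± 0.12 (edgeR adjusted p = 0.0277, below the Abx range in 3 of 6 libraries). That call was lost without Abx saline replicate 2 or 3, or without GF saline replicate 1, 3 or 4, with log2 differences of -0.33 to -0.24 (adjusted p 0.0503 to 0.0849). It was also lost in a fit of only those groups (adjusted p = 0.117) and after the length and GC correction (-0.23, adjusted p = 0.115). In GF saline against H2O saline the difference was -0.25 ± 0.12 (adjusted p = 0.101), and it was called without GF saline replicate 6 (-0.32, adjusted p = 0.0497) and by limma voom (-0.30, adjusted p = 0.0404). For Abx morphine against H2O morphine, limma voom called Notch3 lower (-0.25, adjusted p = 0.0431), where edgeR gave -0.22 ± 0.12 (adjusted p = 0.277).

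Ednra encodes the endothelin A receptor, through which endothelin constricts vessels. GF morphine libraries had 2.33, 2.35, 2.51, 2.71 and 2.74 CPM, and GF saline libraries a lowest, median and highest level of 3.18, 4.18 and 4.90 CPM. All 5 morphine libraries lay below all 6 saline ones. The log2 difference was -0.71 ± 0.14 with an unadjusted p of 9.45e-05, and over 14583 genes it was not called (edgeR adjusted p = 0.414). In that comparison 1 gene in all was called. Abx morphine libraries, with 2.70 to 3.81 CPM, overlapped Abx saline libraries, with 3.16 to 3.95 CPM, and H2O morphine libraries, with 2.69 to 3.96 CPM, overlapped H2O saline libraries, with 3.10 to 4.38 CPM. The test of whether the morphine response in GF differed from that in H2O mice gave -0.66 ± 0.18 (adjusted p = 0.139, not called).

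Among the pericyte genes, Vtn and Cd248 carried most of the differences. Vtn encodes vitronectin, an adhesive glycoprotein of plasma and extracellular matrix. Its RefSeq promoter window (GRCm38.p6, chr11:78498870-78499169, plus strand) is shown because Vtn was the highest of the genes per kilobase and differed in 3 comparisons; capitals mark TGGGAA, the core of the site of the Notch cofactor RBPJ, on either strand.
Vtn: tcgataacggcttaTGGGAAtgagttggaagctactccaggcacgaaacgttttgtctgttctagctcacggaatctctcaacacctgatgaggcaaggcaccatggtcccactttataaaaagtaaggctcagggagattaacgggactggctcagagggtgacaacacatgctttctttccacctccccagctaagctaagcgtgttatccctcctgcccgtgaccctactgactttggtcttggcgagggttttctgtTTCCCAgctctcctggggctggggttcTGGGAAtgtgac
The window holds this motif 3 times, at bases 15 to 20, 262 to 267 and 289 to 294. At least 1 copy was found in 25.6% of 32851 RefSeq promoter windows and 3 or more in 0.368%. Such a match is a description of the letters only.

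Vtn stood at 51.0, 51.5, 55.5, 56.5 and 61.2 CPM in GF morphine, 43.2, 45.0, 49.6, 51.6 and 54.4 CPM in Abx morphine, and 58.2, 62.0, 63.5, 65.7 and 69.7 CPM in H2O morphine libraries. The lowest, median and highest level was 37.9, 51.5 and 56.4 CPM for GF saline, 48.9, 59.1 and 88.6 CPM for Abx saline, and 78.6, 80.6 and 95.3 CPM in H2O saline libraries. H2O saline stood above every other group, with the single exception of Abx saline replicate 1. Vtn fell by 0.77 ± 0.11 (edgeR adjusted p = 1.08e-05, lower in 6 of 6 libraries) in GF saline against H2O saline mice. Against Abx saline it fell by 0.36 ± 0.11 in GF saline (adjusted p = 0.0154, edgeR), with 2 of 6 libraries below the Abx range. That call was lost without Abx saline replicate 1 (-0.24, adjusted p = 0.0746), without GF saline replicate 6 (-0.30, adjusted p = 0.0541), in a fit of only those groups (adjusted p = 0.107) and with the length and GC correction (-0.22, adjusted p = 0.174).

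For Vtn, Abx morphine mice were lower than H2O morphine mice by 0.39 ± 0.12 on the log2 scale, written as -0.39 (edgeR adjusted p = 0.0297, lower in 5 of 5 libraries). This call was lost when any of H2O morphine replicates 3, 5 or 6 or Abx morphine replicates 1, 3 or 4 was left out (-0.39 to -0.34, adjusted p 0.0511 to 0.0894). In 3 further comparisons Vtn was not called by edgeR. Abx saline against H2O saline gave -0.41 ± 0.11 (adjusted p = 0.121, 5 of 6 libraries below), and without Abx saline replicate 1 the value was -0.53 (adjusted p = 0.00818). Of 20 alternatives 2 called it, and the adjusted p reached 0.362. H2O morphine against H2O saline gave -0.38 ± 0.11 with all 5 morphine libraries below the saline range (adjusted p = 0.110). DESeq2, limma voom and a fit of only those groups called it (adjusted p = 0.0394, 0.0184 and 0.00427). These were 3 of 19 alternatives, over which the adjusted p reached 0.332. Abx morphine against Abx saline gave -0.37 ± 0.11 (adjusted p = 0.0519). Of 19 alternatives 7 called it, and the adjusted p ran from 0.00349 to 0.199.

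The genes most like Vtn included markers of several cell types. Over the 33 libraries, with group means removed, the 5 genes most like it were Slc22a8 (r = 0.80), Slc6a13 (0.73), Fcrls (0.68), Serping1 (0.67) and C1qa (0.66), of which Fcrls and C1qa are microglial markers and Slc6a13 a marker of fibroblasts. The pericyte gene Mcam came next (0.66), and the endothelial marker Pecam1 was close behind (0.65). Of 10 microglial markers, 8 fell and 0 rose in Abx morphine against H2O morphine mice, with summed levels of 419 to 495 CPM in Abx morphine and 565 to 626 CPM in H2O morphine libraries, where 5.76% of all genes were called lower. In GF saline against Abx saline, where Vtn was also called lower, 4 of the 10 rose and 0 fell, beside 14.6% of all genes called higher. Summed levels were 533 to 719 CPM in GF saline and 504 to 619 CPM in Abx saline libraries. For GF saline against H2O saline, 2 of the 10 microglial markers fell and 0 rose, near the 14.9% of all genes called lower. The part of microglia in the Vtn result was not tested.

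Cd248 encodes endosialin, a surface glycoprotein of pericytes and stromal fibroblasts. It stood at 2.50, 2.96, 3.25, 3.71 and 4.04 CPM in GF morphine, 1.94, 1.94, 2.06, 2.08 and 3.03 CPM in Abx morphine, and 3.74, 3.76, 4.04, 4.44 and 5.52 CPM in H2O morphine libraries. In saline mice the lowest, median and highest level was 1.51, 1.90 and 2.81 CPM in GF, 3.43, 3.75 and 5.11 CPM in Abx, and 3.89, 4.91 and 5.58 CPM in H2O libraries. Abx morphine and GF saline were the low groups, GF morphine lay between, and each of the 6 groups overlapped its neighbour in the order of means.

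With 2.02 ± 0.50 CPM in GF saline and 4.82 ± 0.61 CPM in H2O saline libraries, Cd248 had the largest fold difference among the 10 genes in that comparison (-1.25 ± 0.16, edgeR adjusted p = 2.35e-06, lower in 6 of 6 libraries). Against Abx saline it fell by 0.97 ± 0.16 in GF saline (edgeR adjusted p = 0.000100, 6 of 6 libraries below). Cd248 fell with morphine in Abx mice: 2.21 ± 0.46 CPM in Abx morphine and 3.96 ± 0.59 CPM in Abx saline libraries (-0.83 ± 0.16, edgeR adjusted p = 0.00207, 5 of 5 below). Abx morphine was also lower than H2O morphine (-0.95 ± 0.16, adjusted p = 0.000187, edgeR, 5 of 5 below). In GF mice the morphine difference had the other sign, 0.71 ± 0.18, with 4 of 5 morphine libraries above the saline range, and was not called (edgeR adjusted p = 0.535).

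The difference between these morphine responses, GF minus Abx, was tested as a contrast added after the levels had been seen. For Cd248 it was 1.54 ± 0.24 (edgeR adjusted p = 0.00157), and it was the only one of the 10 genes called, where 2.21% of all genes were. The value ran from 1.45 to 1.75 over the 31 alternatives, all of which called it. The same contrast for Vtn was 0.54 ± 0.16 (adjusted p = 0.0720); it was called by DESeq2 (adjusted p = 0.0378) and limma voom (0.0356), and without Abx saline replicate 5 or 6 or GF saline replicate 2 or 5 (0.0386 to 0.0488). Directly compared, Cd248 was higher in GF morphine than in Abx morphine mice by 0.57 ± 0.18 (edgeR adjusted p = 0.0154, 3 of 5 libraries above), a call lost without GF morphine replicate 1 (0.49, adjusted p = 0.0592). Of 15 perivascular and meningeal fibroblast markers, 5 rose and 0 fell in that last comparison, beside 14.7% of all genes called higher, with summed levels of 334 to 530 CPM in GF morphine and 379 to 443 CPM in Abx morphine libraries. In GF saline against H2O saline, where Cd248 fell, 3 of the 15 rose and 0 fell, a share near the 18% of all genes called higher, with summed levels of 251 to 395 and 298 to 407 CPM. In Abx morphine against Abx saline, where Cd248 also fell, 11 of the 15 had negative and 4 positive differences, with a median of -0.46. Of these markers 0 were called, beside 3.20% of all genes called lower. Summed levels were 379 to 443 CPM in Abx morphine and 266 to 474 CPM in Abx saline libraries. The part of fibroblasts in the Cd248 results was not tested.

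The other pericyte genes were called in no comparison by edgeR with all libraries. Rgs5, which encodes a regulator that shortens G protein signals, averaged 25.1 ± 6.63 CPM in GF morphine, 24.4 ± 3.67 in Abx morphine, 27.7 ± 1.73 in H2O morphine, 25.7 ± 6.40 in GF saline, 28.6 ± 3.50 in Abx saline and 31.5 ± 3.27 CPM in H2O saline libraries. Its GF saline against H2O saline difference was -0.30 ± 0.14 (edgeR adjusted p = 0.0963, below the range in 4 of 6 libraries). It became -0.57 (adjusted p = 0.00448) with the length and GC correction and -0.40 (adjusted p = 0.0310) without GF saline replicate 3. Against Abx saline, Rgs5 had -0.16 ± 0.14 in GF saline (edgeR adjusted p = 0.414) and was called with the length and GC correction (-0.41, adjusted p = 0.0399). Abcc9, the regulatory subunit of a potassium channel gated by ATP, ranged over group means from 9.94 ± 2.09 CPM in GF morphine to 12.9 ± 1.06 CPM in H2O saline libraries, and every pair of neighbours overlapped. Its GF saline against H2O saline difference of -0.15 ± 0.12 became -0.37 (adjusted p = 0.0157) with the same correction. Without GF morphine replicate 2 it was lower in GF morphine than in Abx morphine (-0.39, adjusted p = 0.0403), against -0.30 ± 0.13 (edgeR adjusted p = 0.0918) with all libraries.

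The contractile genes encode smooth muscle actin (Acta2), the actin-binding transgelin (Tagln) and the smooth muscle myosin heavy chain (Myh11). None was called in any of the 12 comparisons of the edgeR fit. Acta2 averaged 19.2 ± 6.15 CPM in GF morphine, 12.9 ± 3.54 in Abx morphine, 15.5 ± 4.32 in H2O morphine, 15.7 ± 7.06 in GF saline, 17.7 ± 4.69 in Abx saline and 14.6 ± 2.68 CPM in H2O saline libraries. Libraries of one group differed widely: in GF saline Acta2 ran from 5.72 CPM in replicate 4 to 25.7 CPM in replicate 5, and Myh11 from 5.59 to 23.1 CPM in the same libraries. For GF saline against H2O saline the log2 difference was 0.07 ± 0.25 for Acta2, -0.01 ± 0.19 for Tagln and -0.17 ± 0.20 for Myh11. These standard errors are over 2 times that of Pdgfrb (0.08) in the same comparison. Myh11 was called lower in GF saline than in Abx saline without GF saline replicate 5 (-0.60, adjusted p = 0.0206), against -0.42 ± 0.20 (edgeR adjusted p = 0.116) with it. With all libraries, limma voom called this difference too (-0.64, adjusted p = 0.0252). The annotated antisense gene Gm48529 shares 55.0% of the exonic bases of Tagln (GENCODE M21); the strand setting of the counting is not given, so reads of both cannot be told apart. Acta2 belongs to a family of similar actin genes, and how the counting treated reads that match several genes is not given.

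The contractile genes varied together between libraries. With group means removed, Acta2 and Myh11 correlated with r = 0.91 over the 33 libraries (Spearman rho = 0.87, and r = 0.84 without the 2 libraries farthest out on Acta2). Acta2 and Tagln gave r = 0.71 (rho = 0.74, 0.74 without 2), and Tagln and Myh11 r = 0.63 (rho = 0.68, 0.58 without 2). Outside this trio, Myh11 and Notch3 gave r = 0.76 (rho = 0.67, 0.60 without 2), and Rgs5 and Abcc9 r = 0.66 (rho = 0.47, 0.45 without 2). These were the 5 of 45 pairs past the threshold in a two-sided permutation test within groups, with Benjamini-Hochberg adjusted p of 0.000225, 0.000225, 3e-04, 0.00191 and 0.0161 in the order given for Acta2 with Myh11, Acta2 with Tagln, Tagln with Myh11, Myh11 with Notch3 and Rgs5 with Abcc9. The raw p of 1e-05 for the first pairs is the smallest these permutations can give. Between Acta2 and Abcc9 r was -0.06, and over the 21 pairs of a contractile with another gene its median was 0.22. Libraries share the depth and the makeup of the dissected tissue across all genes.

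**Figure D2:**
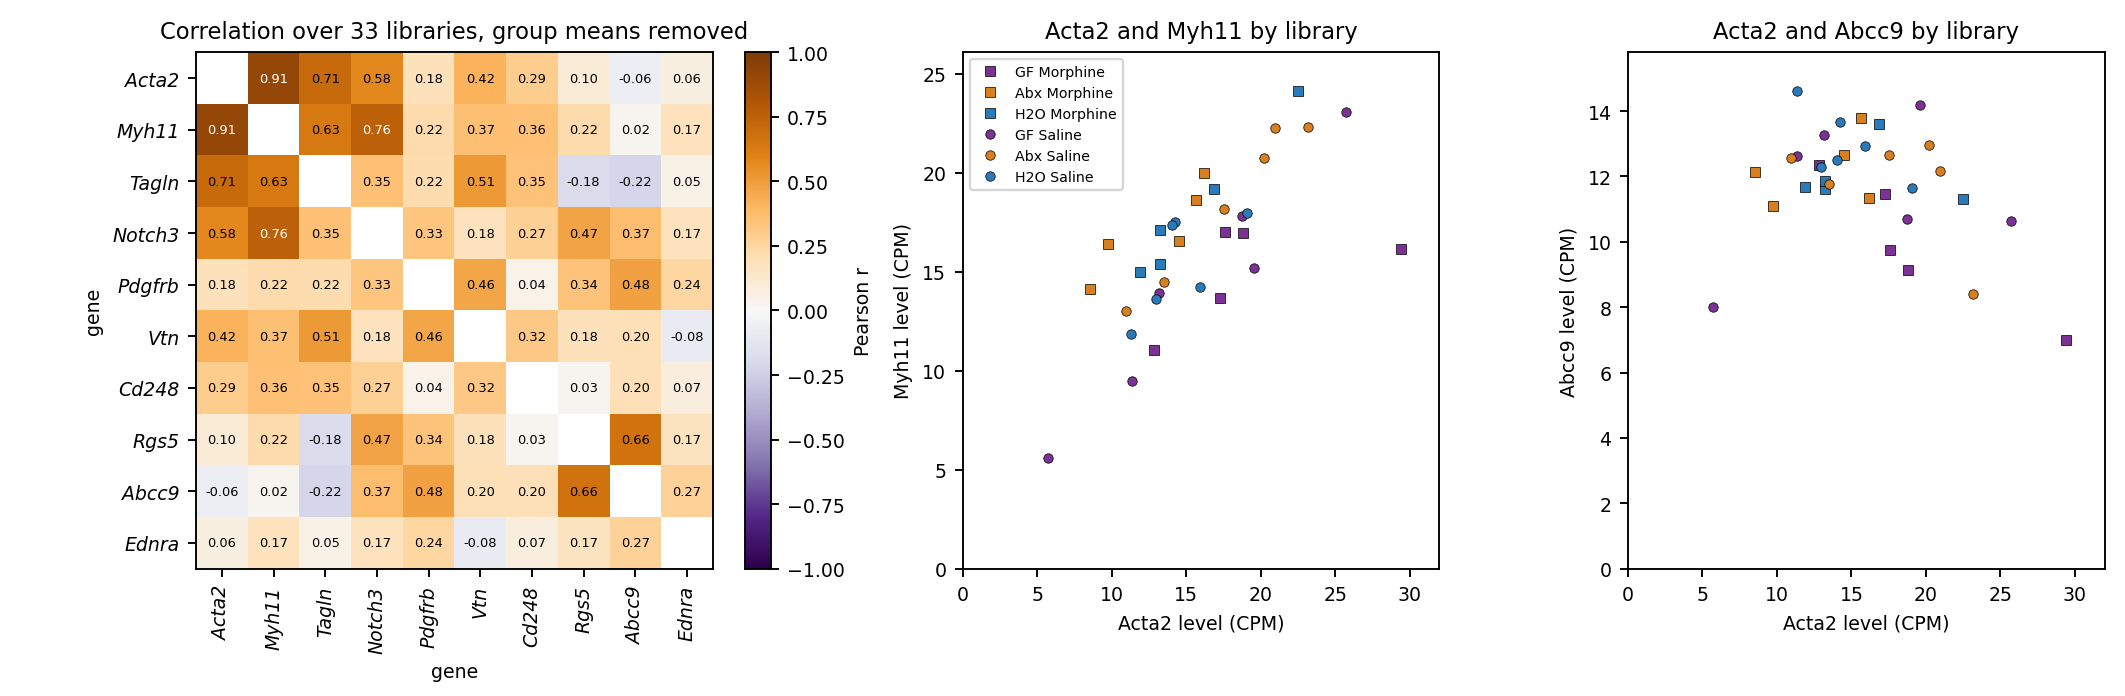
Left, Pearson r of log2 CPM for each pair of the 10 genes over 33 libraries with group means removed; middle and right, levels in CPM of Myh11 and Abcc9 (vertical) against Acta2 (horizontal), 1 point per library, coloured by microbiome state, squares for morphine and circles for saline. Acta2 and Myh11 line up (r = 0.91), while Acta2 and Abcc9 do not (r = -0.06).

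Of all 13956 other genes compared, Myh11 was the gene most like Acta2, followed by Myl9 (r = 0.83), a myosin light chain gene, Itga7 (0.75), Ntsr2 (0.73) and Uckl1 (0.71). For Myh11 the next after Acta2 were Tenc1 (0.77), Lamb2 (0.77), Myl9 (0.77) and Itga7 (0.76). Nearest to Pdgfrb were Gpr116 (0.71), Fam129a (0.64), Inhbb (0.63), Ddx49 (0.63) and Zcwpw1 (0.62). The endothelial markers Ptprb (0.62), Pecam1 (0.62) and Abcb1a (0.60) were also among the 20 most like Pdgfrb. Nearest to Rgs5 were Wnk1 (0.78), the endothelial receptor gene Flt1 (0.77), Clasp2 (0.74), Hspg2 (0.73) and Cdc42bpa (0.73). Other genes of the 10 were among the 20 most like Acta2 and Myh11 (2 each) and Tagln, Notch3 and Abcc9 (1 each). For Pdgfrb, Vtn, Rgs5, Cd248 and Ednra there were 0.

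The promoter window of Acta2 (RefSeq, GRCm38.p6, chr19:34255324-34255623, minus strand) is shown because Acta2 led this co-variation. Capitals mark CArG boxes, the motif of serum response factor, with 1 core letter changed, and TGGGAA, which overlaps the second of them.
Acta2: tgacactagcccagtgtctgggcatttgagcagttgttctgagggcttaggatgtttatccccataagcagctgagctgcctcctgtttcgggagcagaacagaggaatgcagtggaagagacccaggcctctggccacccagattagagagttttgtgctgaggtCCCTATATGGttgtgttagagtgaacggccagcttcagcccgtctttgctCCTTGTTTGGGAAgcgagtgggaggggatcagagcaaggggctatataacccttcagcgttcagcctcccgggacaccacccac
The changed boxes lie at bases 167 to 176 and 217 to 226 of the window and TGGGAA at bases 224 to 229. Windows of 6 of the 10 genes were searched (Acta2, Notch3, Ednra, Vtn, Rgs5 and Abcc9). An unchanged CArG box was found in 0 of these 6 windows and in 1.63% of all windows. The form with 1 changed letter, searched for afterwards on both strands, was in 1 of the 6 windows and in 8.50% of all. TGGGAA was in the windows of Acta2, Vtn and Abcc9. No match says only that these letters are not in the window.

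Read over the whole list, the members' calls were set beside those of all genes. In GF saline against H2O saline 3 of the 10 were called, all lower, where 33% of all genes were called and 14.9% were called lower. The members' share is near the first of these shares. The median log2 difference was -0.21 over the 10 genes and 0.01 over all genes. In GF saline against Abx saline 4 of 10 were called, all lower, beside 27.3% of all genes and 12.8% lower, with a median of -0.28 over the 10 genes. In Abx saline against H2O saline 0 of 10 were called by edgeR and 1 by DESeq2, beside 0.117% of all genes by edgeR. At an unadjusted edgeR p under 0.05 there was 1 of 10, beside 1759 of 14583 genes.

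Under morphine, GF against H2O gave 1 of 10, lower, beside 5.86% of all genes and 2.65% lower. GF against Abx gave 1 lower and 1 higher, beside 28.1% of all genes called, with 13.4% of all genes called lower and 14.7% called higher. Abx against H2O gave 2 of 10, both lower, beside 10.3% of all genes and 5.76% lower, and the median over the members was -0.18. These comparisons share groups of libraries with each other and are not independent.

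For morphine against saline, Abx mice had 1 of 10 called, lower, beside 5.43% of all genes and 3.20% lower. H2O mice had 0 of 10 and 0% of all genes by edgeR, though 1 of 10 and 2220 genes had an unadjusted p under 0.05 and DESeq2 called 1 of 10 and 329 genes. GF mice had 0 of 10 called by edgeR and by DESeq2, beside 0.00686% of all genes by edgeR. At an unadjusted edgeR p under 0.05 they had 3 of 10, beside 962 of 14583 genes. For the morphine response in GF minus that in H2O, 0 of 10 and 0% of all genes were called by edgeR, and 1 of 10, Vtn, by DESeq2. An unadjusted edgeR p under 0.05 was found there for 4 of 10 and for 2321 of 14583 genes. In that contrast Cd248 had 0.87 ± 0.23 (edgeR adjusted p = 0.102), and it was called without GF saline replicate 5 (0.96, adjusted p = 0.0469) or GF morphine replicate 2 (0.97, adjusted p = 0.0475). For Abx minus H2O, 0 of 10 were called by edgeR and by DESeq2, beside 0.110% of all genes by edgeR. Here 1 of 10 and 1151 of 14583 genes had an unadjusted edgeR p under 0.05.

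**Figure D3:**
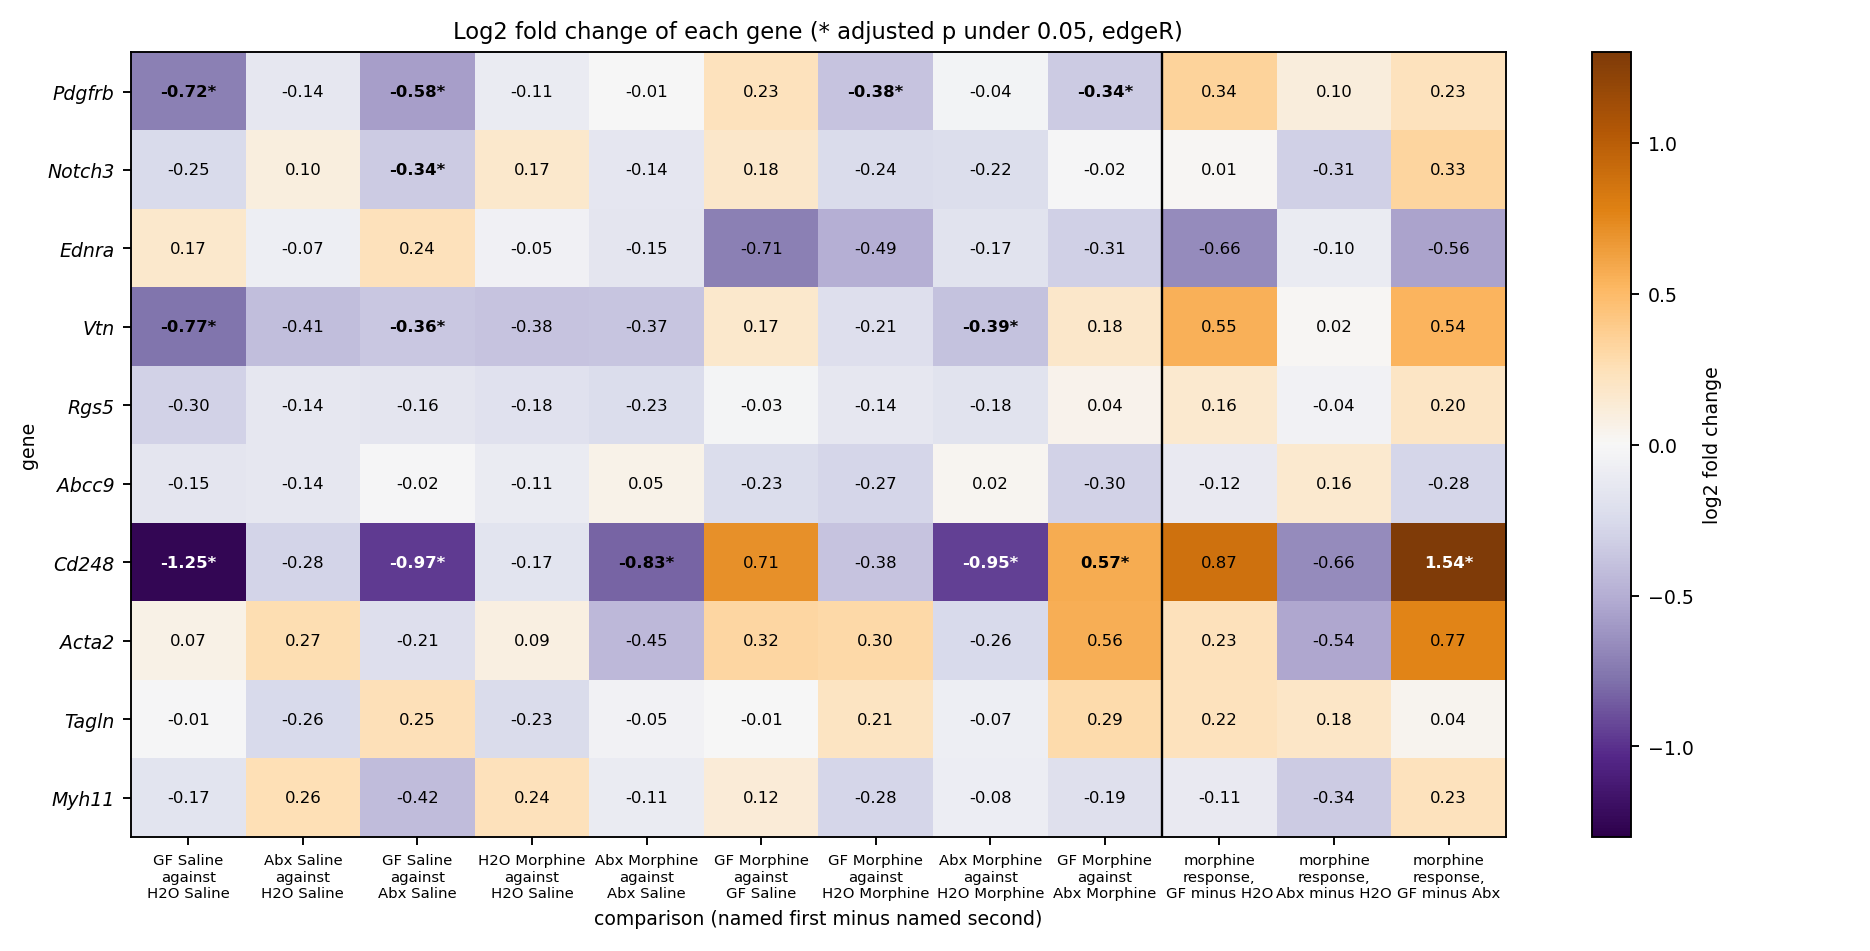
Log2 fold change of each of the 10 genes (rows) in the 12 comparisons (columns, first-named minus second-named group), with an asterisk for an edgeR adjusted p under 0.05. Calls fall on Pdgfrb, Notch3, Vtn and Cd248, from -1.25 to 1.54, and Acta2, Tagln and Myh11 have none.

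Other genes of the same cells were described from lists. Of 25 tested pericyte genes beyond the 10, 6 fell and 0 rose in GF saline against H2O saline, with a median of -0.26. That is a smaller share than the 33% of all genes called, while 14.9% of all genes were called lower. They include Ndufa4l2, a mitochondrial protein gene (-0.87 ± 0.19), Mcam, which encodes a cell adhesion molecule (-0.51 ± 0.13), Atp13a5, a transport ATPase gene (-0.46 ± 0.12), Anpep, which encodes aminopeptidase N (-0.62 ± 0.17), and Cox4i2, a subunit of cytochrome oxidase (-0.69 ± 0.21). Mcam was at 32.1 ± 7.87 CPM in GF saline and 45.3 ± 2.56 CPM in H2O saline libraries. In Abx morphine against H2O morphine 2 fell, Mcam (-0.55 ± 0.14) and Cspg4, also expressed by oligodendrocyte precursors (-0.39 ± 0.12), and Pla1a, a phospholipase gene, rose (0.70 ± 0.20). Of all genes, 5.76% were called lower and 4.57% higher there. Against Abx saline, GF saline had 1 lower, Atp13a5 (-0.32 ± 0.12), beside 12.8% of all genes. In GF morphine against Abx morphine 2 rose, Bgn (0.81 ± 0.18), which encodes the matrix proteoglycan biglycan, and Ifitm1 (0.84 ± 0.25). That is a smaller share than the 14.7% of all genes called higher. Bgn was also called in the morphine response in GF minus that in Abx (0.94 ± 0.24, edgeR adjusted p = 0.0344), where 2.21% of all genes were called. Its level varied widely in GF morphine libraries, from 11.6 to 34.8 CPM with a median of 16.9 CPM. Abx morphine libraries had 9.60 to 12.4 CPM. In the other 7 comparisons edgeR called 0 of the 25, of which 2 to 6 had an unadjusted p under 0.05. Of all 14583 genes, 962 to 3505 had such a p in those comparisons.

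Of 26 tested smooth muscle genes, 3 fell and 0 rose in GF saline against H2O saline, with a median of -0.08, a smaller share than the 14.9% of all genes called lower. They were Myl6 (-0.18 ± 0.06), Tpm2 (-0.48 ± 0.18) and Tpm1 (-0.30 ± 0.11), genes of a myosin light chain and of tropomyosins that other cells express too. In GF morphine against Abx morphine Cav1 (0.79 ± 0.16), Nrip2 (0.79 ± 0.20) and Des (0.96 ± 0.28) rose and Synpo2 (-0.90 ± 0.30) fell. These are smaller shares of the 26 than the 14.7% of all genes called higher and the 13.4% called lower there. In the other 10 comparisons edgeR called 0 of the 26, of which 0 to 6 had an unadjusted p under 0.05. Of all 14583 genes, 962 to 5776 had such a p in those comparisons.

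The ligand genes of the PDGF and Notch pathways were measured in the same libraries. Pdgfb, the endothelial ligand of the Pdgfrb receptor, was 1 of 5 tested PDGF genes called in GF saline against H2O saline: 20.8 ± 3.76 CPM in GF saline and 27.0 ± 1.01 CPM in H2O saline libraries (-0.38 ± 0.09, edgeR adjusted p = 0.00295). It was also lower in GF saline than in Abx saline (-0.42 ± 0.09) and in GF morphine than in Abx morphine (-0.28 ± 0.10). Of all genes, 14.9%, 12.8% and 13.4% were called lower in these comparisons, in the order given. In GF saline against H2O saline 4 of the 5 PDGF genes had positive differences, and the median of the 5 was 0.10. Of 15 Notch pathway genes, 6 fell and 3 rose in GF saline against H2O saline, with a median of -0.21, beside 33% of all genes called. Dll4, an endothelial Notch ligand gene, was at 2.13 ± 0.33 CPM in GF saline and 4.40 ± 0.90 CPM in H2O saline libraries (-1.06 ± 0.18, edgeR adjusted p = 6.67e-05). The Notch target genes Hes5 (-0.89 ± 0.17), Hey1 (-0.45 ± 0.09) and Nrarp (-0.48 ± 0.12) fell too, while Rbpj, the DNA-binding cofactor, rose (0.53 ± 0.08). Hey2, also a Notch target gene and named here after its values were seen, went the other way from Hey1, with 4.44 to 8.25 CPM in GF saline and 3.36 to 4.52 CPM in H2O saline libraries (0.61 ± 0.15, edgeR adjusted p = 0.00270). Hes5 is also expressed by astrocytes.

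In GF saline against Abx saline 6 of the 15 Notch genes fell and 1 rose, with Hes5 (-1.18 ± 0.17), Dll4 (-1.05 ± 0.18), Notch1 (-0.44 ± 0.10) and Nrarp (-0.46 ± 0.12) lower and Rbpj (0.30 ± 0.08) higher. Of all genes, 12.8% were called lower and 14.6% higher there. Under morphine, 5 of the 15 fell and 0 rose in GF against H2O, beside 2.65% of all genes called lower. They were Dll4 (-0.99 ± 0.19), Jag1 (-0.91 ± 0.19), Notch1 (-0.49 ± 0.11), Notch2 (-0.54 ± 0.13) and Hes5 (-0.78 ± 0.18). In GF morphine against Abx morphine 8 fell and 0 rose, led by Dll4 (-1.05 ± 0.18), beside 13.4% of all genes called lower. Among 5 tested endothelin genes beyond Ednra, Ece1, a converting enzyme gene, fell in GF saline against H2O saline (-0.26 ± 0.07). There 14.9% of all genes were called lower. Ece2 fell in Abx morphine against H2O morphine (-0.64 ± 0.19), beside 5.76% of all genes called lower. In GF morphine against Abx morphine Ece2 (0.78 ± 0.19) and the B receptor gene Ednrb (0.40 ± 0.15) rose, beside 14.7% of all genes called higher.

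Of 20 endothelial markers, 11 fell and 1 rose in GF saline against H2O saline, beside 14.9% of all genes called lower and 18% called higher. Their median was -0.31, and their summed level was 506 to 739 CPM in GF saline and 689 to 793 CPM in H2O saline libraries. GF saline replicate 4 had both the lowest endothelial sum, 506 CPM, and the lowest sum of the 10 mural genes, 138 CPM. The calls of Pdgfrb, Vtn and Cd248 in this comparison held in each of the 21 alternatives, that without this library included. The 4 pericyte members (Vtn, Rgs5, Abcc9 and Cd248) summed to 70.2 to 106 CPM in GF saline and 126 to 150 CPM in H2O saline libraries, without overlap. Vtn made up most of this sum and of its difference, with 49.1 ± 7.33 CPM in GF saline and 83.4 ± 6.40 CPM in H2O saline libraries, and Rgs5 and Abcc9 taken singly overlapped. In the same libraries the 3 contractile genes summed to 22.2 to 65.9 CPM in GF saline and 38.4 to 49.2 CPM in H2O saline. In GF morphine against H2O morphine 3 endothelial markers rose and 1 fell, with a median of -0.09. Of all genes, 3.21% were called higher there and 2.65% lower. The part of vessel content in the mural results was not tested.

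**Figure D4:**
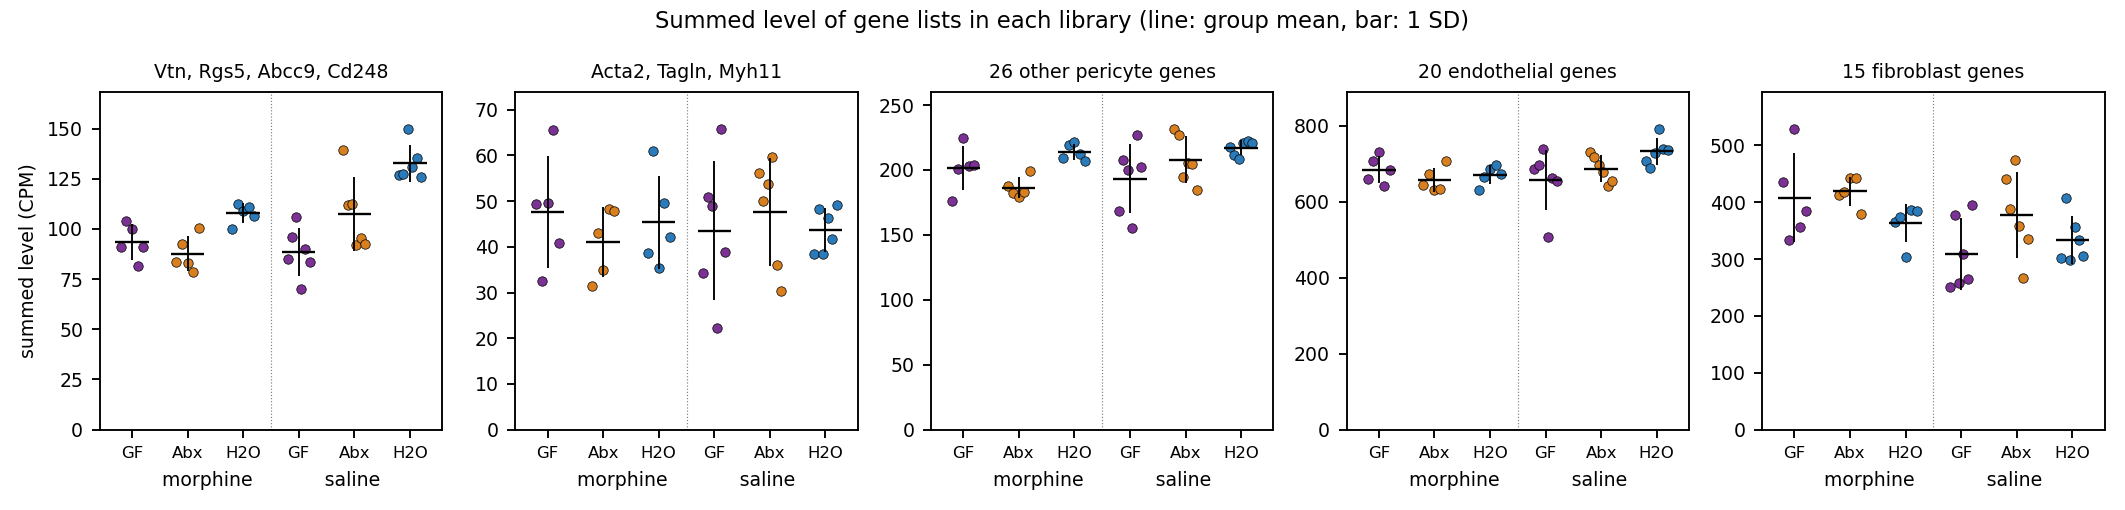
Summed level in CPM (vertical axis, from 0) of 5 gene lists in each library by group; points are libraries, lines means and bars 1 SD. The sum of the 4 pericyte members, most of it Vtn, is lower in all GF saline libraries than in H2O saline, and the contractile sum overlaps in every group.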

How the data were processed

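Nucleus accumbens RNA was reverse transcribed with a SMARTer cDNA kit, per the labels' protocols. The authors deposited a table of read counts per gene symbol, whole numbers without normalization. The submitters' processing notes name FastQC, STAR 2.4.0 and edgeR. Not given in the sources used here: genome build, annotation, counting program and strand setting. A deposited normalized table was not used. Left out were 5 tally rows, which held 19.3 to 35.4% of reads per library, and 27 rows whose symbols had turned into dates.

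The counts were filtered with filterByExpr (minimum count 10), scaled with TMM and fitted for all 6 groups with edgeR 4.0.16 (quasi-likelihood, R 4.3.3), leaving 27 residual degrees of freedom; the common biological coefficient of variation was 0.128. P-values were adjusted by Benjamini-Hochberg over 14583 genes. The procedure was tested on simulated data. Alternatives were RLE size factors, upper-quartile factors, no filter, DESeq2 1.42.0, limma 3.58.1 voom, fits of only the groups compared, a replicate block, a length and GC correction, and leaving out libraries. No 2 libraries of a group agreed within counting noise. Genes named from a list are the 5 with the smallest p past the threshold. The members, lists and tests were chosen with earlier results of these data known.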

Additional observations from a re-analysis of the deposited data

Results flagged for a closer look

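Among 60 combinations of a gene and a group, 4 had a library far from the others of its group by Dixon's test at the 95% level, where chance gives about 1 in 20, or 3. Abcc9 was low in Abx saline replicate 4 (8.42 CPM, the others from 11.8 to 13.0 CPM). Abcc9 was high in H2O morphine replicate 5 (13.6 CPM, the others from 11.3 to 11.9 CPM). Cd248 was high in Abx saline replicate 1 (5.11 CPM, the others from 3.43 to 4.00 CPM) and in Abx morphine replicate 5 (3.03 CPM, the others from 1.94 to 2.08 CPM). The morphine response of Cd248 differed between GF and Abx mice (1.54 ± 0.24 on the log2 scale, edgeR adjusted p = 0.00157), in a contrast added after the levels had been seen. GF morphine against GF saline stood at 0.71 and was not called (edgeR adjusted p = 0.535), and Abx morphine against Abx saline stood at -0.83.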

How the results depend on the processing

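The 14 calls were recomputed under 287 alternatives in all: 268 kept direction and significance, 19 lost significance and 0 reversed. With the length and GC correction, the number of the 10 genes called became 5 in GF saline against H2O saline (3 without it) and 0 in GF morphine against H2O morphine (1). Across all genes the log2 difference of GF saline against H2O saline correlated with GC content at rho = -0.51 and with length at 0.34. The fit of only the groups compared called 2 in GF saline against Abx saline (4). DESeq2 called 1 (Vtn) in Abx saline against H2O saline (0). In H2O morphine against H2O saline (0), DESeq2, limma voom and the fit of only the groups compared each called 1. In Abx morphine against Abx saline (1), RLE size factors, DESeq2, limma voom and the replicate block each called 2. In the morphine response in GF minus that in H2O (0), DESeq2 called 1, as did the fit without GF saline replicates 1 and 5. In GF minus Abx (1), DESeq2, limma voom and the fit without those 2 libraries each called 2. That omission and the GF minus Abx contrast were chosen after seeing the data, and the cause of these changes was not tested. Leaving out 1 library gave 3 to 4 in GF saline against H2O saline, 0 to 1 in Abx saline against H2O saline, 3 to 5 in GF saline against Abx saline, 1 to 2 in Abx morphine against Abx saline, 1 to 2 in Abx morphine against H2O morphine, 1 to 3 in GF morphine against Abx morphine, 0 to 1 in GF minus H2O and 1 to 2 in GF minus Abx. Shared replicate numbers did not pair the libraries: in 0 of 15 pairs of groups were all correlations of same-numbered libraries over 0.1. Over all genes, GF saline against H2O saline gave 4807 calls and 2372 with the correction, and H2O morphine against H2O saline gave 0 calls, against 329 by DESeq2, 1323 by limma voom and 989 in the fit of only those groups. Depth limits Cd248 and Ednra most, with as few as 10 and 15 reads in a library.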
